A study of Homo sapiens with 12 samples.

Results

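ITGB8 encodes the β8 subunit of the integrins, and its level was followed in RCC4 cells together with 9 related genes. Of the 23106 gene symbols counted in each library, 10 were read out by name: ITGB8, its α partner ITGAV, the other β subunits that pair with αv (ITGB1, ITGB3, ITGB5 and ITGB6), the α subunits ITGA5, ITGA3 and ITGA2, and the ligand TGFB1. All 10 passed the expression filter and were tested. ITGB8 was singled out because it was lower with HIF2A siRNA than with control siRNA in these same libraries, so that its values in this comparison are given as a description, without a test. The other 9 genes were chosen as its relatives.

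Integrins are paired α and β subunits on the cell surface that bind matrix proteins and link them to the cytoskeleton. The αv subunit pairs with several β subunits, and many of these pairs recognize the RGD sequence of their ligands, which include vitronectin, fibronectin and the latent form of TGF-β. αvβ8 and αvβ6 are known for releasing active TGF-β from its latent complex, whereas α5β1 is a fibronectin receptor, α3β1 a laminin receptor and α2β1 a collagen receptor.

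The measurements were polyA RNA-seq of RCC4, an established line of human clear cell renal carcinoma without functional VHL, in which both HIF-1α and HIF-2α are stable at normal oxygen. Cells in 21% oxygen were transfected with pools of siRNA and harvested after 48 h, to tell apart genes that depend on HIF-1 from those that depend on HIF-2. The control group received 2 nM of non-targeting siRNA, the HIF1A siRNA group 1 nM against HIF1A with 1 nM control, the HIF2A siRNA group 1 nM against EPAS1 (the gene for HIF-2α) with 1 nM control, and the double knockdown 1 nM of each HIF siRNA and no control siRNA. Each of the 4 groups had 3 replicates, which gave 12 libraries from 1 cell line. The methods call the replicates biological without saying how the cultures were kept apart, so that p-values measure the spread between these samples.

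Libraries held from 13263168 to 20451433 counts, and levels are given as CPM, the counts scaled to library size with TMM factors. EPAS1 was at 157 ± 16.9 CPM with control siRNA and 114 ± 17.7 with HIF1A siRNA, against 10.1 ± 1.53 with HIF2A siRNA and 8.94 ± 2.16 in the double knockdown (SD, n = 3 each). HIF1A was at 96.7 ± 33.6, 18.3 ± 3.62, 121 ± 13.3 and 28.7 ± 4.09 CPM in the same order (SD, n = 3 each), so that each library was low for the gene its label names. The cell type was checked against 10 markers of renal carcinoma epithelium, whose summed level was 4503 to 7192 CPM. Most of this sum was VIM, a gene of mesenchymal and many cultured cells, at 3661 to 4611 CPM as a group mean. KRT8 was at 437 to 484 CPM, PAX8 at 229 to 298, KRT18 at 105 to 159, KRT19 at 63.8 to 97.6 and EPCAM at 46.3 to 54.2 CPM, while the adherens junction gene CDH1 stayed under 1 CPM in every group. Among markers of other cell types, PTPRC and CD3E had no count in any of the 12 libraries, and the summed level of 4 endothelial markers was 0.432 CPM at most. CD68, which macrophages express, was at 46.1 to 58.1 CPM on average in the 4 groups. The 5 markers of fibroblasts or pericytes summed to 31.4 to 99.2 CPM, the highest with HIF2A siRNA, where COL1A1 reached 71.1 CPM, while DCN was at or near 0. 0 of the 4 tested were called in any comparison in edgeR. Between groups, 0.0857 to 10.3% of all genes were called, so that the count is no result about these markers. Their part in the results was not tested. In bulk RNA, fewer cells that express a gene and less of its RNA per cell cannot be told apart.

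HIF dimers bind DNA at a core of ACGTG or GCGTG. The promoter windows of RefSeq on GRCh38.p14, from 250 bases before to 50 after each listed start, were searched for these letters on both strands. The build is not the one on which the reads were counted. ITGB3 and ITGA3 have no entry in this table. The ITGB8 window, chr7:20330650-20330949 on the plus strand, holds no ACGTG and 2 GCGTG. Of all 35116 windows, 21.4% hold ACGTG, 36.5% hold GCGTG and 48.4% hold either. The stretches around the matches of ITGB8 are shown with the match in the first of the 2 windows of its partner ITGAV, the other holding neither core, and with that of ITGA5, the α subunit described below that fell in the double knockdown. The core is in capitals, and CACGC is GCGTG read on the other strand.
ITGB8, chr7:20330661-20330689, plus strand: caatgtcccgccCACGCtgctccgagctg
ITGB8, chr7:20330742-20330770, plus strand: ggcgctccggtaGCGTGgggaggtttcct
ITGAV, chr2:186590064-186590092, plus strand: gcctcagacgctGCGTGgagcggcggagc
ITGA5, chr12:54419380-54419408, minus strand: gcgcccccccccCACGCcccttaggggtg
The first base of the core lies at -227 and -146 from the ITGB8 start, at 20 after the ITGAV start and at -130 from the ITGA5 start. ITGB1, in both of its windows, and ITGB6 hold neither core. Of 3 ITGB5 windows, 1 holds no core, 1 holds 4 GCGTG and 1 holds 1. ITGA2 and TGFB1 hold 1 GCGTG each. A match is a stretch of letters and was not measured as a binding site here.

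ITGB8 mRNA was lower in every library that received HIF2A siRNA, with or without HIF1A siRNA, than in every library that did not. ITGB8 was at 132, 96.8 and 91.6 CPM with control siRNA in replicates 1, 2 and 3. It was at 100, 98.7 and 92.2 CPM with HIF1A siRNA. With HIF2A siRNA the levels were 58.4, 53.5 and 41.9 CPM. Control replicate 1 was the highest of all libraries, and the HIF1A siRNA libraries lay within the range of the control. In the double knockdown the levels were 55.4, 35.1 and 41.3 CPM, within or below the range of HIF2A siRNA alone. The group means were 107 ± 21.8, 97.0 ± 4.22, 51.3 ± 8.51 and 44 ± 10.4 CPM (SD, n = 3 each), resting on 467 to 2147 counts per library.

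**Figure D1:**
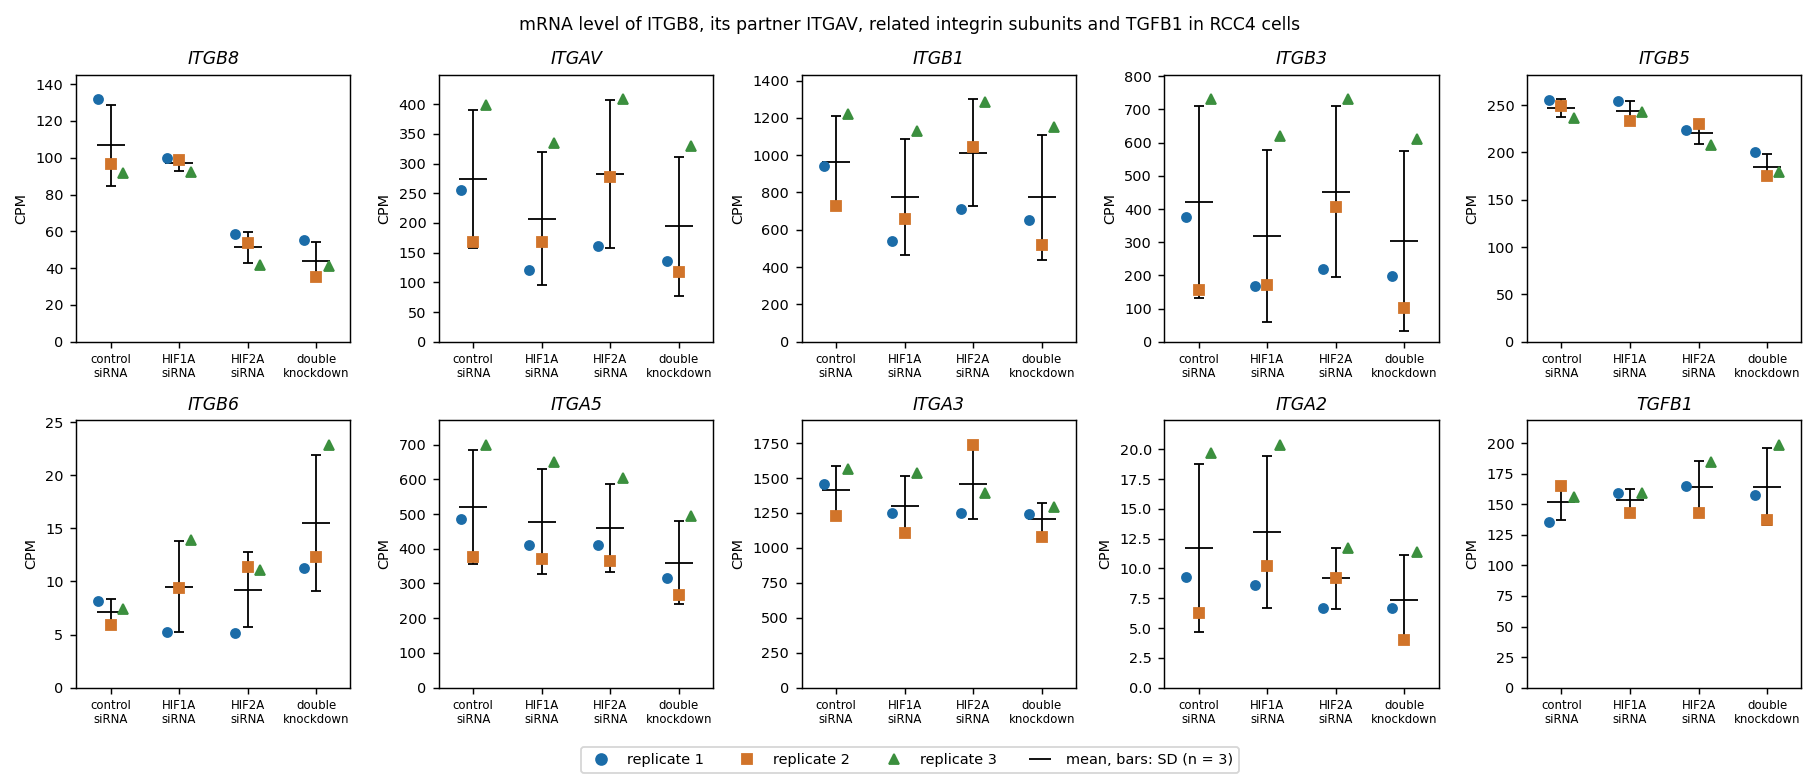
Level (CPM, linear axis from 0) of ITGB8, ITGAV and 8 related genes in each of the 12 libraries, by siRNA group. Symbols mark the replicate number, and the line and bars give the mean and SD of 3 replicates. ITGB8 is lower in all 6 libraries that received HIF2A siRNA, at 35.1 to 58.4 CPM, than in the 6 others, at 91.6 to 132 CPM, while replicate 3 is the highest library of each group for ITGAV, ITGB1 and ITGB3.

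With HIF2A siRNA, ITGB8 was at 44.6, 55.5 and 46.0% of the control library of the same number (ratios after adding 0.5 CPM). The fitted log2 fold change was -1.04 (standard error 0.13, 95% interval -1.33 to -0.76), and it lay between -1.16 and -0.95 in the 17 alternative fits. This is the comparison from which the gene was chosen, and the background is 0.0857% of 12830 genes with an adjusted p under 0.05, each of the 11 lower. With HIF1A siRNA, ITGB8 was at 76.2, 102 and 101% of control. The log2 fold change was -0.12 (95% interval -0.40 to 0.16), with replicate 1 alone below its control. Both comparisons share the control libraries.

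The double knockdown and the HIF1A siRNA group differ in that 1 nM HIF2A siRNA took the place of 1 nM control siRNA. Their comparison asks for the effect of HIF2A siRNA between groups other than the control and HIF2A siRNA groups that called ITGB8 lower. The fit takes in all 12 libraries, so its spread and replicate terms rest also on the libraries from which the gene was chosen. HIF1A mRNA was not equal in these groups. In the double knockdown it was at 160, 178 and 133% of the HIF1A siRNA library of the same number. EPAS1 mRNA with HIF1A siRNA was itself at 62.3, 77.1 and 78.6% of the control library of the same number. Its log2 fold change was -0.47 (adjusted p = 0.28 from edgeR). ITGB8 fell to 55.6, 35.9 and 45.1% of the HIF1A siRNA library of the same number, without overlap between the groups. The log2 fold change was -1.16 (standard error 0.13, 95% interval -1.44 to -0.88, quasi-likelihood adjusted p = 0.00023 in edgeR, by Benjamini-Hochberg over 13000 genes). Of those genes, 1.40% had an adjusted p under 0.05, and 4.46% were lower in the double knockdown without overlap. When the pairing by replicate number was left out of the fit, it was -1.14 with an adjusted p of 0.099 in edgeR (no replicate block). The HIF1A siRNA libraries had been used to see that ITGB8 was not lowered by HIF1A siRNA, so they are not wholly apart from the choice of the gene.

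Between the double knockdown and HIF2A siRNA, ITGB8 overlapped, at 94.9, 66.0 and 98.8% within pairs, a log2 fold change of -0.23 (95% interval -0.51 to 0.05). Against control siRNA, the double knockdown was at 42.4, 36.6 and 45.4%, a log2 fold change of -1.28 (95% interval -1.56 to -0.99), which shares its control libraries with the choice of the gene. The effect of HIF2A siRNA with HIF1A siRNA present, minus its effect without, was -0.11 on the log2 scale (95% interval -0.50 to 0.28). No gene of the 13000 (0%) passed an adjusted p of 0.05 for this interaction in edgeR's quasi-likelihood test, 318 had an unadjusted p under 0.05, and alternatives gave up to 11 genes, none of them among the 10.

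ITGAV, the only α subunit known to pair with β8, did not pass the test in any comparison. It was at 255, 168 and 398 CPM with control siRNA and at 161, 278 and 409 CPM with HIF2A siRNA. With HIF1A siRNA it was at 120, 168 and 334 CPM, and in the double knockdown at 136, 118 and 329 CPM. Replicate 3 was the highest in each group, and all groups overlapped. The log2 fold change with HIF2A siRNA was 0.02 (95% interval -0.44 to 0.48, adjusted p = 1.0 from edgeR with Benjamini-Hochberg adjustment), with 63.1, 165 and 103% of control in the pairs. With HIF1A siRNA it was -0.48 (95% interval -0.93 to -0.02, adjusted p = 0.65), in the double knockdown -0.58 against control siRNA (95% interval -1.01 to -0.15, adjusted p = 0.081) and -0.11 against HIF1A siRNA (95% interval -0.54 to 0.32, adjusted p = 0.88), all from edgeR. ITGAV passed the threshold in 6 of 20 alternatives for the double knockdown against control siRNA. Against HIF2A siRNA, the double knockdown was at 84.7, 42.4 and 80.4% for ITGAV in the pairs. This was a log2 fold change of -0.61, past the threshold in 4 of 20 alternatives.

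**Figure D2:**
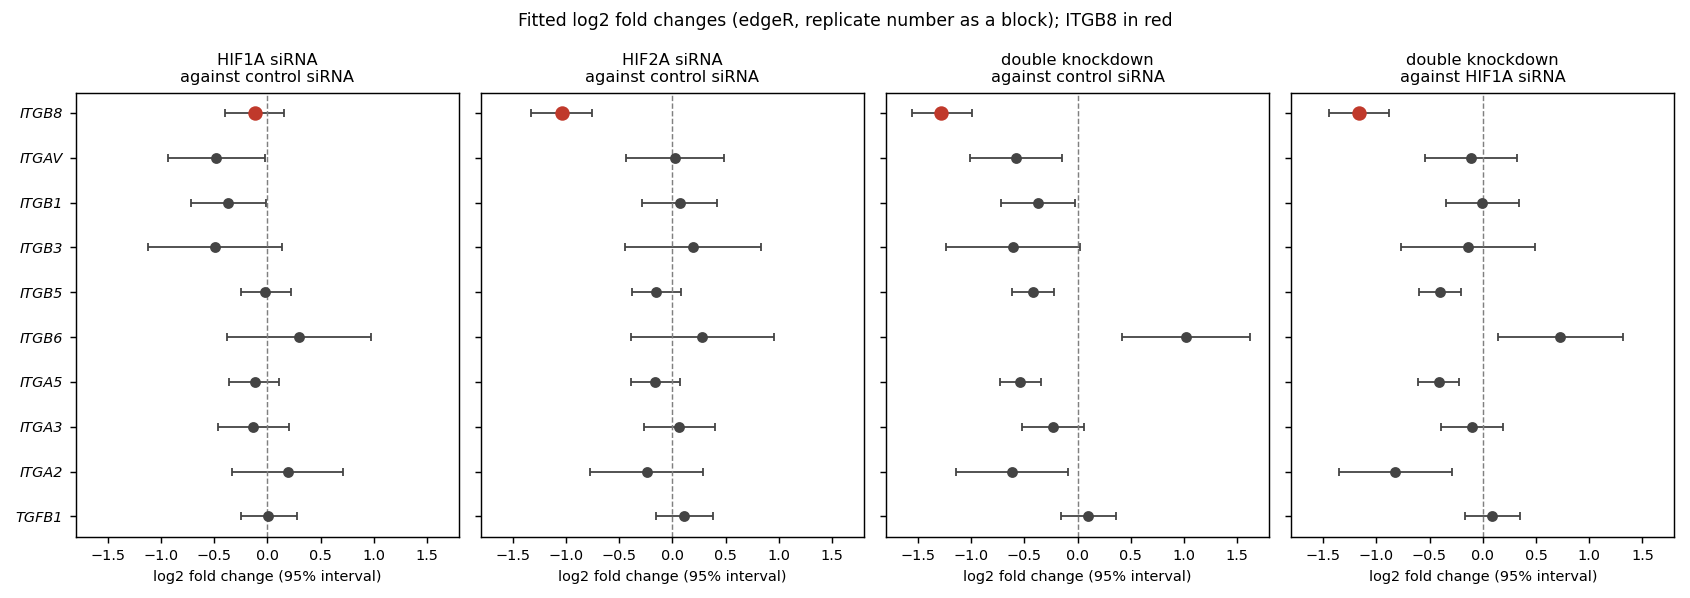
Fitted log2 fold change (points) and 95% interval (bars) of ITGB8 (red) and 9 related genes in 4 comparisons, from edgeR with the replicate number as a block. ITGB8 lies at -1.04 with HIF2A siRNA and at -1.16 in the double knockdown against HIF1A siRNA, where ITGAV, ITGB1 and ITGB3 all lie between -0.14 and -0.01. The widest intervals belong to ITGB3 and ITGB6.

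The 9 genes read out beside ITGB8, which include α subunits and TGFB1, gave a mixed picture. With HIF2A siRNA, 0 of the 9 genes other than ITGB8 passed the test in edgeR or in any of the 17 alternatives. The background in edgeR is 0.0857% of all genes, so that the count of 0 is no result about these genes. Their log2 fold changes ran from -0.24 to 0.28, with a median of 0.06 against 0.01 over all genes tested. None of these 9 had an unadjusted p under 0.05 in this comparison. With HIF1A siRNA, 0 of 10 passed, where the background is 1.17%. ITGAV and ITGB1 had an unadjusted p under 0.05 in this comparison, and leaving out control replicate 2 brought 2 genes, ITGAV and ITGB3, past the threshold. When the double knockdown was compared with HIF1A siRNA, 2 of the 9 fell and 0 rose, where 0.969% of genes were called lower. Against control siRNA, 2 of the 9 fell and 1 rose, where 6.42% of genes were called lower and 3.86% higher. Against HIF2A siRNA, 1 of the 9 fell, where 3.22% of genes were called lower.

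ITGB1, the β subunit shared by most matrix-binding integrins, was at 962 ± 247, 774 ± 311, 1013 ± 289 and 773 ± 333 CPM with control, HIF1A, HIF2A and both HIF siRNAs (SD, n = 3 each). The fitted log2 fold change was 0.07 with HIF2A siRNA (95% interval -0.29 to 0.42) and -0.01 in the double knockdown against HIF1A siRNA (95% interval -0.35 to 0.34). ITGB3, the vitronectin receptor subunit, was at 421 ± 291, 319 ± 260, 452 ± 258 and 304 ± 271 CPM in the same order (SD, n = 3 each). Its libraries ran from 102 CPM in replicate 2 of the double knockdown to 732 CPM in replicate 3 of control siRNA, and replicate 3 was at 611 CPM or more in each group. The log2 fold changes of ITGB3 were 0.19 with HIF2A siRNA (95% interval -0.45 to 0.83) and -0.14 in the double knockdown against HIF1A siRNA (95% interval -0.77 to 0.49). For ITGB3 each interval spans more than 1 log2 unit. Both genes had lower fitted levels where HIF1A siRNA was added, without passing the test in edgeR and with all groups overlapping. The log2 fold changes of ITGB1 were -0.37 with HIF1A siRNA, and in the double knockdown -0.37 against control siRNA and -0.44 against HIF2A siRNA. Those of ITGB3 were -0.49, -0.61 and -0.85 in the same order.

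ITGB5, which forms a vitronectin receptor with αv, was lower in each double knockdown library than in any other library. It was at 255, 249 and 236 CPM with control siRNA, at 254, 233 and 243 with HIF1A siRNA and at 224, 230 and 208 with HIF2A siRNA. In the double knockdown it was at 200, 175 and 179 CPM. Without overlap, as here, 15.6% of genes differed from control siRNA in either direction, and 5.52% were lower than with HIF2A siRNA. ITGB5 had a log2 fold change of -0.42 against control siRNA (standard error 0.09, adjusted p = 0.0098 from edgeR with Benjamini-Hochberg adjustment, past the threshold in 15 of 20 alternatives). Against HIF1A siRNA it was -0.40 (standard error 0.09, adjusted p = 0.048 from edgeR, past the threshold in 4 of 20 alternatives), with 78.8, 74.9 and 73.9% in the pairs. With HIF2A siRNA alone ITGB5 was at 87.7, 92.4 and 88.2% of control without overlap, a log2 fold change of -0.15 (95% interval -0.38 to 0.08, adjusted p = 0.95 from edgeR), where 2.88% of genes were lower without overlap.

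ITGB6, the epithelial αv partner that also releases TGF-β, had few counts and was higher in the double knockdown. Its levels were 8.15, 5.87 and 7.44 CPM with control siRNA and 11.3, 12.3 and 22.9 CPM in the double knockdown. The groups did not overlap, which held for 15.6% of all genes in either direction, and replicate 3 of the double knockdown was the highest of all libraries. With HIF1A siRNA the levels were 5.24, 9.42 and 13.9 CPM, and with HIF2A siRNA 5.14, 11.4 and 11.1 CPM, both overlapping control. ITGB6 had a log2 fold change of 1.02 in the double knockdown against control siRNA (standard error 0.28, adjusted p = 0.032 from edgeR with Benjamini-Hochberg adjustment, past the threshold in 13 of 20 alternatives). It was 0.73 against HIF1A siRNA (95% interval 0.14 to 1.32, adjusted p = 0.27 from edgeR).

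Of the 3 members that encode α subunits of β1 integrins, ITGA5 was called in the double knockdown and ITGA3 and ITGA2 were not, and differences between them were not tested. ITGA5, which forms the fibronectin receptor α5β1, was at 487, 377 and 700 CPM with control siRNA and at 317, 267 and 495 CPM in the double knockdown. It was at 412, 370 and 651 CPM with HIF1A siRNA and at 410, 365 and 604 CPM with HIF2A siRNA. All groups overlapped, and replicate 3 was the highest of each group, while within each pair the double knockdown was the lowest of the 4 conditions. On the log2 scale ITGA5 differed by -0.54 against control siRNA (standard error 0.09, adjusted p = 0.0015 from edgeR, past the threshold in 18 of 20 alternatives). It was -0.41 against HIF1A siRNA (adjusted p = 0.036 from edgeR, 8 of 20 alternatives) and -0.37 against HIF2A siRNA (adjusted p = 0.034 from edgeR, past the threshold in only 5 of 20 alternatives). With either siRNA alone it was -0.12 and -0.16, with adjusted p of 0.91 and 0.95 in edgeR.

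ITGA3, the laminin receptor subunit, was at 1415 ± 172, 1297 ± 217, 1460 ± 253 and 1206 ± 112 CPM (SD, n = 3 each) and passed no test, with log2 fold changes from -0.28 to 0.06. ITGA2, the collagen receptor subunit, was at 11.7 ± 7.08, 13.1 ± 6.38, 9.17 ± 2.54 and 7.37 ± 3.75 CPM (SD, n = 3 each). In the double knockdown its log2 fold change was -0.62 against control siRNA (95% interval -1.14 to -0.09, adjusted p = 0.13 from edgeR) and -0.82 against HIF1A siRNA (95% interval -1.35 to -0.29, adjusted p = 0.14 from edgeR), lower in 3 of 3 pairs in both. These values are no smaller than those of ITGA5 but did not pass the test. TGFB1, the ligand whose latent form αvβ8 binds, was at 152 ± 14.8, 154 ± 9.41, 164 ± 21.1 and 165 ± 31.2 CPM (SD, n = 3 each). Its log2 fold changes lay between -0.00 and 0.11 in all 5 comparisons between groups, with a 95% interval of -0.15 to 0.38 for HIF2A siRNA and -0.17 to 0.35 for the double knockdown against HIF1A siRNA.

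The replicates contributed unequally to these levels. For log2 CPM over the 12 libraries, the siRNA accounted for 88.1% of the variance of ITGB8 and for 88.0% of that of ITGB5, and the replicate number for 7.81 and 6.70%. For ITGAV, ITGB1, ITGB3 and ITGA5 the replicate number accounted for 68.9, 63.4, 73.4 and 74.5%, and the siRNA for 17.0, 19.3, 11.2 and 24.4%. Summed over all genes tested, the replicate number accounted for 49.8% and the siRNA for 25.8%. The shares of ITGB8 follow in part from its choice, since the siRNA difference for which it was picked is part of its total variance.

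For an order of levels between genes, CPM was divided by the length in kb of the Ensembl canonical transcript (GENCODE version 44). With control siRNA the level per kb was 289 ± 35.2 for ITGA3, 258 ± 66.2 for ITGB1, 123 ± 38.6 for ITGA5, 70.9 ± 48.9 for ITGB3, 55.6 ± 2.16 for ITGB5, 54.8 ± 5.33 for TGFB1 and 38.9 ± 16.5 for ITGAV (SD, n = 3 each). ITGB8 followed at 11.9 ± 2.42 CPM per kb, above ITGB6 at 1.54 ± 0.251 and ITGA2 at 1.5 ± 0.902 (SD, n = 3 each). Neighbours in this order overlapped between replicates, except that ITGB1 stood above ITGA5, ITGAV above ITGB8, and ITGB8 above ITGB6. Among the 5 β partners of αv, ITGB8 was therefore the fourth by level per kb, with ITGB6 below it.

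Per kb, ITGB8 was at 40.5, 45.3 and 18.1% of ITGAV in the control libraries and at 28.6, 15.2 and 8.11% with HIF2A siRNA. It was at 65.5, 46.1 and 21.7% of ITGAV with HIF1A siRNA and at 32.1, 23.6 and 9.96% in the double knockdown. Within each replicate number, both groups with HIF2A siRNA were below both groups without it. Against ITGB6, ITGB8 per kb went from 790, 790 and 600% with control siRNA to 246, 144 and 92.3% in the double knockdown, so that in replicate 3 of the double knockdown the level of ITGB6 per kb exceeded that of ITGB8.

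Whether ITGB8 differed from the other β partners was tested on the log2 ratio of their CPM values within each library. Between the double knockdown and HIF1A siRNA, the ratio of ITGB8 to ITGB1 differed by -1.14 on average (SD 0.03 between 3 pairs). The differences were -0.98 for the ratio to ITGB3 (SD 0.23), -0.76 for ITGB5 (SD 0.28) and -1.86 for ITGB6 (SD 0.02), and each was negative in 3 of 3 pairs. The two-sided exact permutation test of 3 against 3 libraries, whose smallest possible p is 0.1, gave p = 0.2, 0.5, 0.1 and 0.1 for ITGB1, ITGB3, ITGB5 and ITGB6, and 0.27, 0.5, 0.2 and 0.2 after Benjamini-Hochberg adjustment over the 4 partners. This design cannot reach 0.05, and flipping signs within the 3 pairs cannot go below 0.25. The ratio to ITGAV differed by -1.04 (SD 0.08 between pairs, exact permutation p = 0.3). For HIF2A siRNA against control siRNA, given as a description, the ratio differed by -1.11, -1.24, -0.88 and -1.32 for the 4 β partners and by -1.08 for ITGAV.

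**Figure D3:**
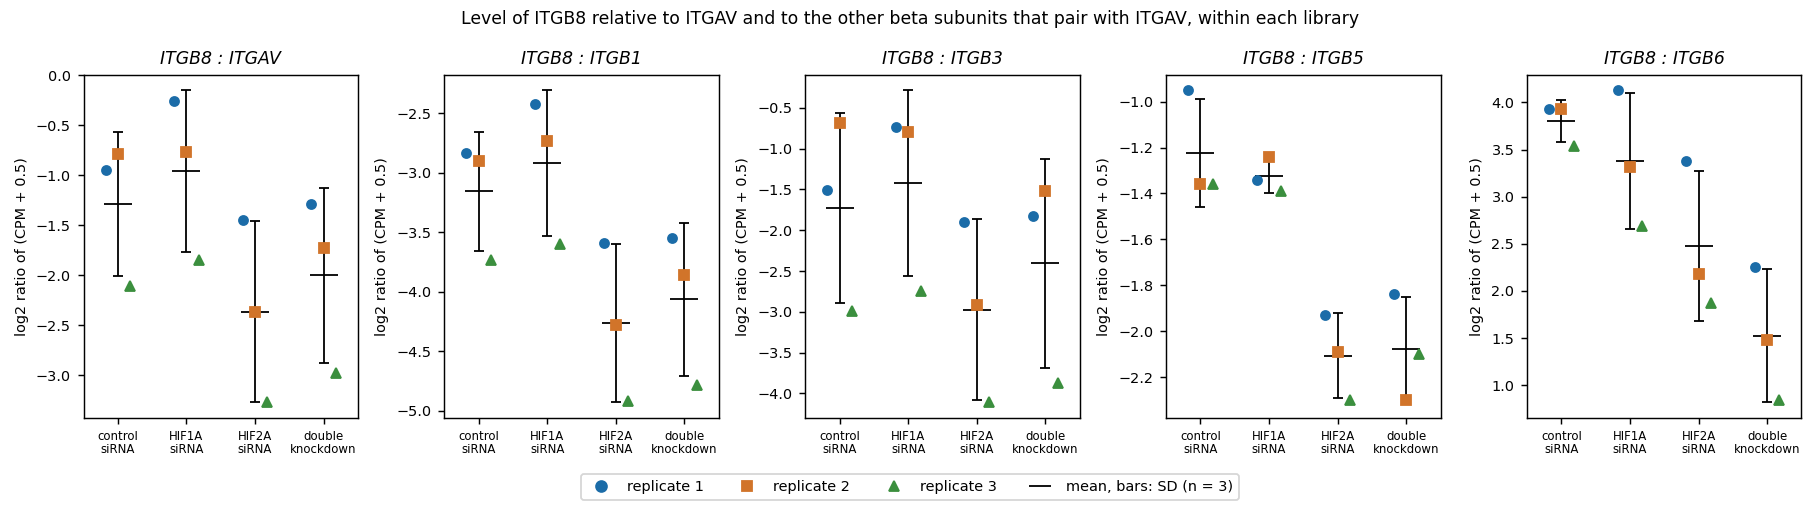
Log2 ratio of the CPM of ITGB8 to that of ITGAV and of each other β partner of αv (0.5 added to each), per library and siRNA group. Symbols mark replicate numbers, and the line and bars give the mean and SD of 3 replicates. In each panel every replicate is lower with HIF2A siRNA than with control siRNA, and lower in the double knockdown than with HIF1A siRNA, where the mean differences run from -0.76 to -1.86.

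Other integrin subunits were mostly low or did not pass the test. Of 14 further α subunit genes, 5 passed the expression filter among the 9 libraries without the double knockdown and 6 among all 12, and 0 were called in any comparison in edgeR. Between groups, 0.0857% (HIF2A siRNA) to 10.3% (double knockdown against control siRNA) of all genes were called. For so few genes, the count of 0 is no result about these subunits. The highest were ITGA6, the α partner of β4 and β1, ITGA1, a collagen receptor subunit, and ITGAE. ITGA6 was at 45.7 ± 30.8 CPM with control siRNA and 33.8 ± 21.2 in the double knockdown (SD, n = 3 each). The fold change was -0.41 on the log2 scale (adjusted p = 0.18 from edgeR). ITGA1 and ITGAE had log2 fold changes of 0.02 and 0.12 with HIF2A siRNA. ITGA4, ITGA8, ITGA9 and ITGA11 had no count in any library. Of the 3 other β subunit genes, ITGB2, the leukocyte integrin subunit, rose in the double knockdown, with 40.9, 41.0 and 26.3 CPM under control siRNA and 68.7, 53.2 and 57.6 CPM in the double knockdown, without overlap. Between these groups 15.6% of all genes did not overlap, in either direction. The log2 fold change of ITGB2 was 0.74 (standard error 0.15, adjusted p = 0.0047 from edgeR, past the threshold in 17 of 20 alternatives), while CD68 was at 49.0 ± 7.60 and 58.1 ± 7.02 CPM (SD, n = 3 each) and PTPRC had no count in the same libraries. The part of other cells in the ITGB2 level was not tested.

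The genes around TGF-β were read in lists of ligands and latency factors, receptors and SMADs, and response genes, beside lists of matrix ligands and of the adhesion complex at the integrin tails. With HIF2A siRNA, no gene of the 5 lists was called, among 10, 13, 10, 7 and 14 tested genes. With 0.0857% of all genes called, this count says nothing particular about the lists, whose medians were -0.07, -0.09, 0.06, 0.01 and -0.01. When the double knockdown was compared with HIF1A siRNA, 1 gene was called over the 5 lists together, a share near the 1.40% of all genes called. It was TGFBI, a matrix protein induced by TGF-β, at 2695, 3245 and 2873 CPM with HIF1A siRNA and at 1892, 2269 and 1886 CPM in the double knockdown. The groups did not overlap, where 4.46% of all genes were lower without overlap. The log2 fold change of TGFBI was -0.55 (standard error 0.09, adjusted p = 0.0078 from edgeR, past the threshold in 13 of 20 alternatives). The lists had medians of -0.34, -0.08, -0.05, 0.04 and -0.12 in this comparison, against 0.01 over all genes tested.

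More genes of these lists were called in the double knockdown against control siRNA, where 10.3% of all genes were. Of the ligands and latency factors 3 of 10 fell: THBS1, a matrix protein that activates latent TGF-β (log2 fold change -1.0), the protease MMP9 (-1.41) and LTBP2, of the family of latent TGF-β binding proteins (-0.83). The receptors TGFBR1 (-0.81) and TGFBR2 (-0.49) fell, and SMAD3, a signal transducer of TGF-β, rose (0.64), so that 2 of 13 were lower and 1 higher. Of the response genes 4 of 10 fell, among them TGFBI (-0.91), TAGLN, an actin-binding protein of smooth muscle (-0.71), and PMEPA1, a feedback inhibitor of TGF-β signalling (-0.37). Of the adhesion complex 2 of 14 fell, ILK (-0.46) and TLN2 (-0.68), and of the matrix ligands 0 of 7 passed. Their adjusted p in edgeR ran from 1.8e-05 for TGFBI to 0.035 for PMEPA1. The calls of PMEPA1, TGFBR2 and LTBP2 held in 9, 11 and 14 of 20 alternatives. THBS1 is on a gene list that the study chose on these libraries, so that its direction is not independent evidence.

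TGFBI was at 3925, 4005 and 3373 CPM with control siRNA and at 2856, 3854 and 2937 CPM with HIF2A siRNA, which overlap. All 3 double knockdown libraries of TGFBI were below all 9 others, and its call against control siRNA held in 20 of 20 alternatives. Against HIF2A siRNA alone, 2 of 10, 1 of 13 and 4 of 10 genes of the TGF-β lists were lower in the double knockdown, where 3.22% of all genes were. SMAD3 was higher, at 0.67 (adjusted p = 0.0049 from edgeR), and of the matrix ligands L1CAM, a neuronal adhesion molecule that binds αv integrins, was lower, at -0.61 (adjusted p = 0.018 from edgeR). L1CAM was also the only gene of the lists called with HIF1A siRNA, a share near the 1.17% of all genes called. The log2 fold change of L1CAM was -0.83 (adjusted p = 0.014 from edgeR, past the threshold in 12 of 17 alternatives), and the study's list holds it too.

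**Figure D4:**
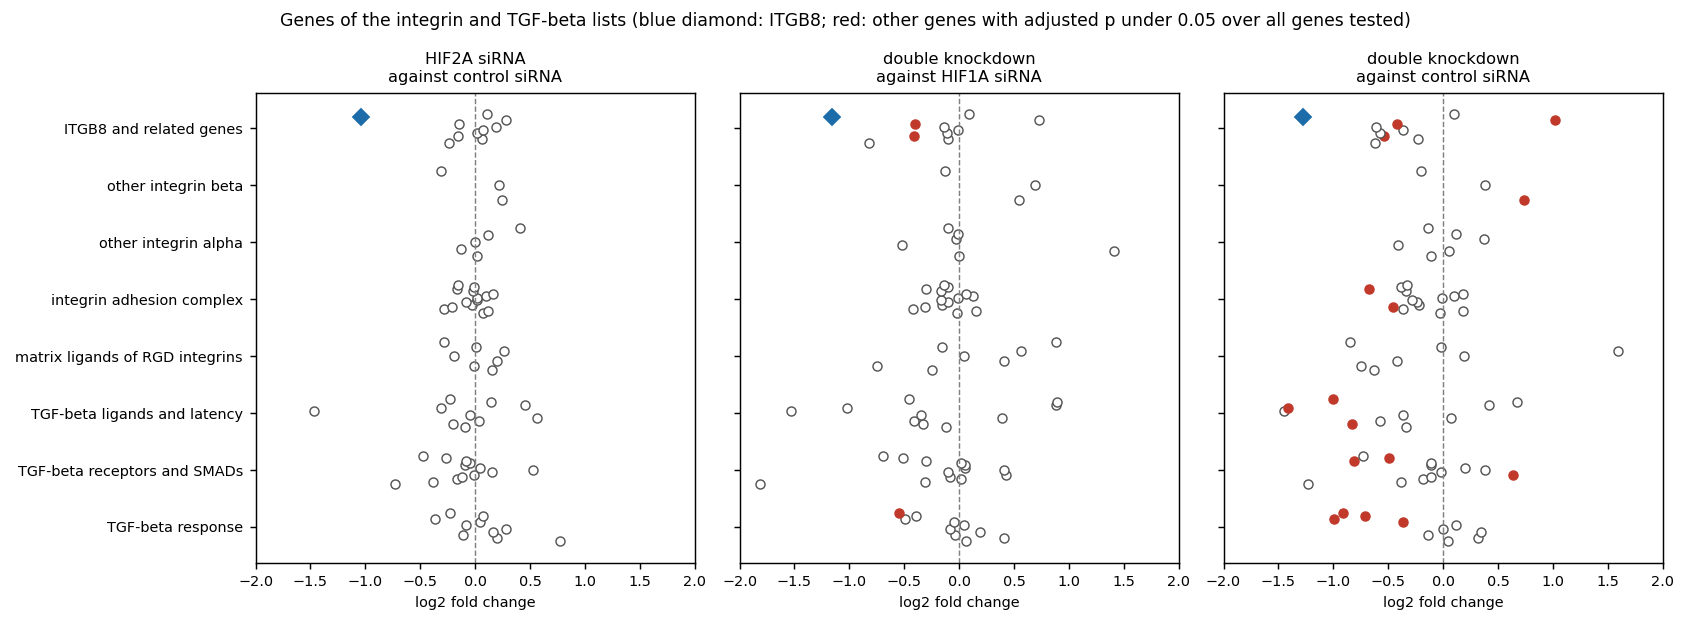
Log2 fold change of each tested gene of the integrin, adhesion and TGF-β lists in 3 comparisons. The blue diamond is ITGB8 and red marks other genes with an adjusted p under 0.05 from edgeR. No gene is red with HIF2A siRNA. In the double knockdown ITGA5, ITGB5 and TGFBI are red when it is compared with HIF1A siRNA, and a larger number is red when it is compared with control siRNA, from -1.41 for MMP9 to 1.02 for ITGB6.

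The genes whose levels ran most like ITGB8 were found by Pearson's r of log2 CPM over the 12 libraries after removal of replicate means, among 12999 other genes. They were ABR, a relative of BCR (r = 0.98), CCND1, which encodes cyclin D1 (r = 0.98), STK39, a kinase of ion transport (r = 0.97), TNFAIP6, a hyaluronan-binding protein (r = 0.97), and EPAS1 itself (r = 0.97). The points share their siRNA groups, so these values describe likeness of pattern and carry no test. Of the other integrin genes, ITGB5 came closest (r = 0.89, rank 83), then ITGA5 (0.82) and ITGA2 (0.79), whereas ITGAV was at 0.29, ITGB3 at 0.22, ITGB1 at 0.20, TGFB1 at -0.40 and ITGB6 at -0.50. CCND1 was at 606, 568 and 330 CPM with control siRNA and 388, 412 and 188 with HIF2A siRNA, and it is on the study's list for HIF2A siRNA. ABR, chosen here by its likeness, was at 192, 163 and 193 CPM with control siRNA and 129, 128 and 138 CPM with HIF2A siRNA. In this comparison ABR, CCND1, STK39 and TNFAIP6 were not called (adjusted p = 0.29, 0.065, 0.77 and 0.12 from edgeR). Their log2 fold changes were -0.46, -0.63, -0.34 and -0.59, beside -1.04 for ITGB8.

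None of the 3 RefSeq genes on either side of ITGB8, all of them non-coding or pseudogenes, is among the counted symbols. The nearest counted protein-coding genes were MACC1 and ABCB5, which were looked up after values had been seen. ABCB5 had at most 4 counts in a library. MACC1, a gene named for its association with metastasis of colon cancer, was at 66.9, 43.6 and 22.5 CPM with control siRNA and at 33.1, 21.8 and 12.8 CPM with HIF2A siRNA. It was lower in each pair, at 49.9, 50.6 and 57.9% of control, although the groups overlapped. It is on the study's list for HIF2A siRNA, so that these values are a description. With HIF1A siRNA it was at 63.6, 45.8 and 29.5 CPM, and in the double knockdown at 22.7, 20.6 and 8.18 CPM, without overlap, where 4.46% of all genes were lower without overlap. The log2 fold change between these groups was -1.49 (standard error 0.14, adjusted p = 5.2e-05 from edgeR with Benjamini-Hochberg adjustment, past the threshold in 19 of 20 alternatives), beside -1.16 for ITGB8. Without the replicate block it was -1.43 with an adjusted p of 0.89 in edgeR. The MACC1 promoter window holds neither ACGTG nor GCGTG.

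**Figure D5:**
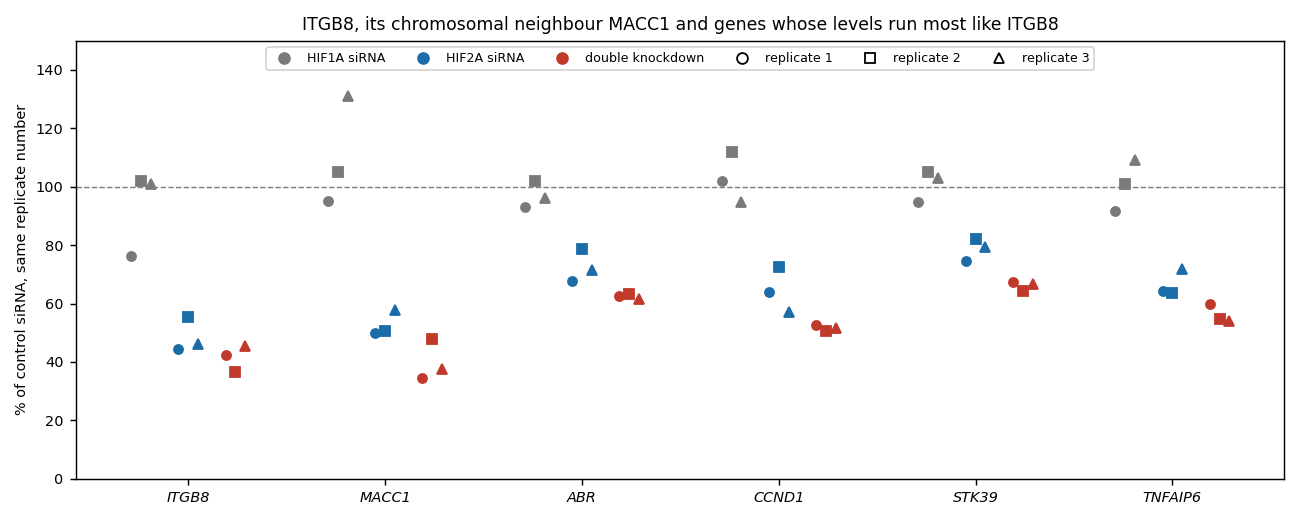
Level in each siRNA library as a percentage of the control library of the same replicate number (0.5 CPM added to both), for ITGB8, its chromosomal neighbour MACC1 and the 4 genes other than EPAS1 with the most similar pattern. Colours mark the siRNA and symbols the replicate. ITGB8 is at 44.6 to 55.5% with HIF2A siRNA and 36.6 to 45.4% in the double knockdown, and MACC1 at 49.9 to 57.9% and 34.5 to 47.9%.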

How the data were processed

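RNA was measured in 12 RCC4 libraries, 3 per siRNA group, with groups and replicate numbers taken from the labels. Per the submitters' processing notes, the authors trimmed reads with Trim Galore (0.3.3), aligned them to hg19 with HISAT2 (2.05), removed fragments without a unique position with Picard (2.0.1) and counted fragments per gene with HTSeq (0.5.4p3). They deposited raw counts for 23106 gene symbols, without normalization. The library kit marks strand, but the strand setting of the counting is not given in the sources used here. By GENCODE version 44, exons of ITGB8, ITGAV, ITGB1, ITGA5 and TGFB1 overlap a gene on the opposite strand, and exons of ITGB3 and ITGB6 a gene on the same strand, so reads could be shared.

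Differences in the deposited counts were tested by quasi-likelihood in edgeR (4.0.16, R 4.3.3), with TMM scaling and edgeR's filter (a minimum of 10 counts and 15 in total). The replicate number was a block, and p-values were adjusted by Benjamini-Hochberg over all genes tested. As in the study's methods, HIF1A and HIF2A siRNA were compared with control siRNA without the double knockdown (9 libraries, 12830 genes), and the double knockdown and the interaction in all 12 libraries (13000 genes). Calls had an adjusted p under 0.05. The pairing comes from the methods. Deviations from group means had correlations across genes of 0.0991 to 0.813 in 18 pairs of libraries with the same number. In 36 pairs with different numbers they were -0.724 to 0.527, so the ranges overlap. Because deviations within a group sum to 0, the ranges are not independent, and they do not settle the pairing of each library. Replicates of a group differed by more than sampling noise and none was merged. The fits were tested on simulated data.

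Named genes were the 10 listed genes, HIF1A and EPAS1, genes of the lists with an adjusted p under 0.05 in any of 6 comparisons or else up to 3 by mean CPM, the 3 RefSeq genes on each side of ITGB8, and the 5 genes most like it. The genes and lists were chosen with earlier results of these data known. Alternatives were DESeq2 (1.42.0) size factors or its test, no filter, no replicate block, other sets of libraries, a pseudocount of 0.1 in place of 0.5 CPM for ratios, and each replicate number or library left out. At these depths a level of 1 CPM stands on at least 10 counts, and the spread between replicates limits the precision. Of the response genes called, 1 is counted but not reported here.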

Additional observations from a re-analysis of the deposited data

How the results depend on the processing

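ITGB8 was lower in the double knockdown than with HIF1A siRNA in all 20 alternatives (log2 fold change -1.33 to -1.01) and past the threshold in 19 of them. Without the replicate block it was -1.14 with an adjusted p of 0.099 in edgeR. The number of the 10 genes called depended more on the fit. Without the replicate block it was 1 in place of 4 for the double knockdown against control siRNA, 0 in place of 3 against HIF1A siRNA and 0 in place of 1 against HIF2A siRNA. In a fit of only the 6 compared libraries these counts were 9, 5 and 0. The totals over all genes, given below, also depended on the fit, so that these counts are no result about the 10 genes. Against HIF2A siRNA the count was 3 without the filter and 2 with DESeq2's test. When a replicate number or a library was left out, the counts ran from 0 to 2 for HIF1A siRNA (2 without control replicate 2), 1 to 9 for the double knockdown against control siRNA (1 without replicate 3, 2 without double knockdown replicate 3, 9 without HIF2A siRNA replicate 2), 1 to 4 against HIF1A siRNA and 0 to 3 against HIF2A siRNA. The cause was not tested. The interaction called 0 of the 10 genes in each of 19 alternatives, and HIF2A siRNA 0 of the 9 genes other than ITGB8 in each of 17. Over all genes, calls ran from 41 to 236 for HIF1A siRNA, 1 to 58 for HIF2A siRNA, 195 to 2609 for the double knockdown against control siRNA, 8 to 656 against HIF1A siRNA and 90 to 818 against HIF2A siRNA. The fits without the block gave the lowest of these, with 41, 1, 195, 8 and 90. The fits reported above called 150, 11, 1336, 182 and 520 genes in the same order, of 12830 tested for each single siRNA and 13000 for the double knockdown.

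Directions turned for the log2 fold changes below, of which none had passed the test. They lay between -0.24 and 0.30. With a replicate number or library left out, the range for HIF1A siRNA was -0.20 to 0.03 for ITGB8, -0.05 to 0.03 for ITGB5, -0.03 to 0.81 for ITGB6, -0.08 to 0.38 for ITGA2, -0.09 to 0.16 for TGFB1 and -0.00 to 0.23 for MACC1. For HIF2A siRNA it was -0.34 to 0.41 for ITGAV, -0.19 to 0.33 for ITGB1, -0.42 to 0.73 for ITGB3, -0.08 to 0.79 for ITGB6, -0.20 to 0.21 for ITGA3 and -0.63 to 0.03 for ITGA2. For the double knockdown against HIF1A siRNA it was -0.26 to 0.07 for ITGAV, -0.16 to 0.16 for ITGB1, -0.35 to 0.13 for ITGB3, -0.19 to 0.00 for ITGA3 and -0.03 to 0.18 for TGFB1. TGFB1 ran from -0.03 to 0.28 against control siRNA and from -0.11 to 0.09 against HIF2A siRNA, where it was 0.00 without the block. The interaction for ITGB8 ran from -0.36 to 0.15.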

Other observations

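Among the markers used to check the cell type, some differed between siRNA groups. CA9, which encodes carbonic anhydrase IX, was at 226 ± 73.2 CPM with control siRNA, 18.7 ± 8.69 with HIF1A siRNA, 305 ± 104 with HIF2A siRNA and 13 ± 5.43 in the double knockdown (SD, n = 3 each). It fell with HIF1A siRNA by a log2 fold change of -3.64 (Benjamini-Hochberg adjusted p = 1.3e-07 in edgeR) and is on a list that the study chose on these libraries. Of the keratins of simple epithelia, KRT19 was lower in the double knockdown than with HIF1A siRNA (log2 fold change -0.63, adjusted p = 0.0074 from edgeR, past the threshold in 13 of 20 alternatives), at 104, 108 and 80.1 against 64.9, 80.1 and 46.4 CPM. KRT18 was higher in the double knockdown than with control siRNA (0.49, adjusted p = 0.027 from edgeR, past the threshold in 11 of 20 alternatives). FN1, which encodes fibronectin, the ligand of α5β1 and of several αv integrins, was at 5164, 5364, 5407 and 4815 CPM in replicate 3 of the 4 groups, against 866 to 1593 CPM in replicates 1 and 2, and passed no test between siRNA groups.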
